A study of Mus musculus with 6 samples.

Results

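Smooth muscle genes of the testis were followed in 6 RNA libraries from mice with and without the testis long non-coding RNA Teshl. The 10 genes were Acta2, Myh11, Myl9, Cnn1, Tagln, Des, Actg2, Tpm1, Tpm2 and Lmod1, out of 25165 gene symbols in the tables. They were selected on the cell type, as genes of the contractile cells around the tubules, and on the FPKM of Myl9, known to be lower in the libraries lacking the RNA. The comparison between the groups was therefore part of the choice. Their differences between groups are described, with nothing read from a test of them. All 10 were measured above 0 in every library, and 9 of them, all but Lmod1, passed the filter on low values (a group mean of 1 FPKM or more).

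The libraries came from testes of 8-week-old C57BL/6 mice, 3 titled KO (deficient in Teshl) and 3 titled WT (wild type), with no treatment named. The genotype field of the labels says the opposite of the titles for all 6, so the groups below are those of the titles. Teshl, listed as 1700027A15Rik, was at 0.385, 0 and 0 FPKM in KO and at 1028, 989 and 1081 FPKM in WT (log2 difference -9.86, limma adjusted p = 2.91e-08), which goes with the titles. FPKM is a fragment count scaled to transcript length and to the number of mapped fragments. The labels do not say which part of the gene was removed, or whether replicates were different mice, so spreads and p-values describe these libraries and may be technical. Depth, read from the spacing of the lowest values, was about 27900000 to 39600000 fragments per library.

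Peritubular myoid cells are flat, contractile cells that wrap each seminiferous tubule and squeeze it, which moves fluid and sperm toward the rete testis. They use the machinery of smooth muscle: actin filaments and myosin II, switched on when calcium and calmodulin activate myosin light chain kinase, which phosphorylates the regulatory light chain. Smooth muscle of blood vessels holds the same genes. Many of these genes are switched on by serum response factor (SRF) and its partner myocardin, through a short DNA element called the CArG box, a core of A and T bases between CC and GG.

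Because that element is what many smooth muscle promoters have in common, it was looked for in the RefSeq promoter windows (GRCm38.p6, 250 bases before to 50 bases after the annotated start). Of the 10 genes, 7 had a window: Acta2, Cnn1, Des, Lmod1, Myl9, Tpm1 and Tpm2. The windows of Myl9 and Acta2 held the element when 1 G or C was allowed in its core, and that of Myl9 alone held an exact box. Each is shown with 10 bases on either side, 5′ to 3′ on the strand of the gene, with the box in capitals. The box reads the same way on both strands as a motif, so 1 search covers both.
Myl9, chr2:156775293-156775322, plus strand, exact box 161 bases before the start: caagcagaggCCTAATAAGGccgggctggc
Myl9, chr2:156775355-156775384, plus strand, 99 bases before the start: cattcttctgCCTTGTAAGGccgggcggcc
Acta2, chr19:34255438-34255467, minus strand, 84 bases before the start: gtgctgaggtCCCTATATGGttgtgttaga
Acta2, chr19:34255388-34255417, minus strand, 34 bases before the start: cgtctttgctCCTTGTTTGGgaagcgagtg
Over all 32851 promoter windows of the same length, 1.63% held an exact box, 9.98% held one with at most 1 G or C in the core, and 0.822% held at least 2 of the latter, as both Myl9 and Acta2 did. The search allowing 1 G or C was added after the exact search had been seen. In GENCODE M21 the first exon of Acta2 begins upstream of both of its boxes, so their distance depends on the annotated start.

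The levels spanned more than 2 orders of magnitude per unit of transcript length. In WT the order was Actg2, Myl9, Acta2, Tpm1, Tagln, Myh11, Tpm2, Cnn1, Des and Lmod1. Mean FPKM in WT fell from 122 for Actg2 through 32.7 for Myl9 and 16.1 for Acta2 to 1.55 for Cnn1, 1.23 for Des and 0.703 for Lmod1. Between neighbours in that order, the ranges of the 3 WT libraries overlapped only for Tpm1 and Tagln. In KO they overlapped for Tagln and Tpm1 and for Des and Cnn1, and these pairs stood in the opposite order.

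**Figure D1:**
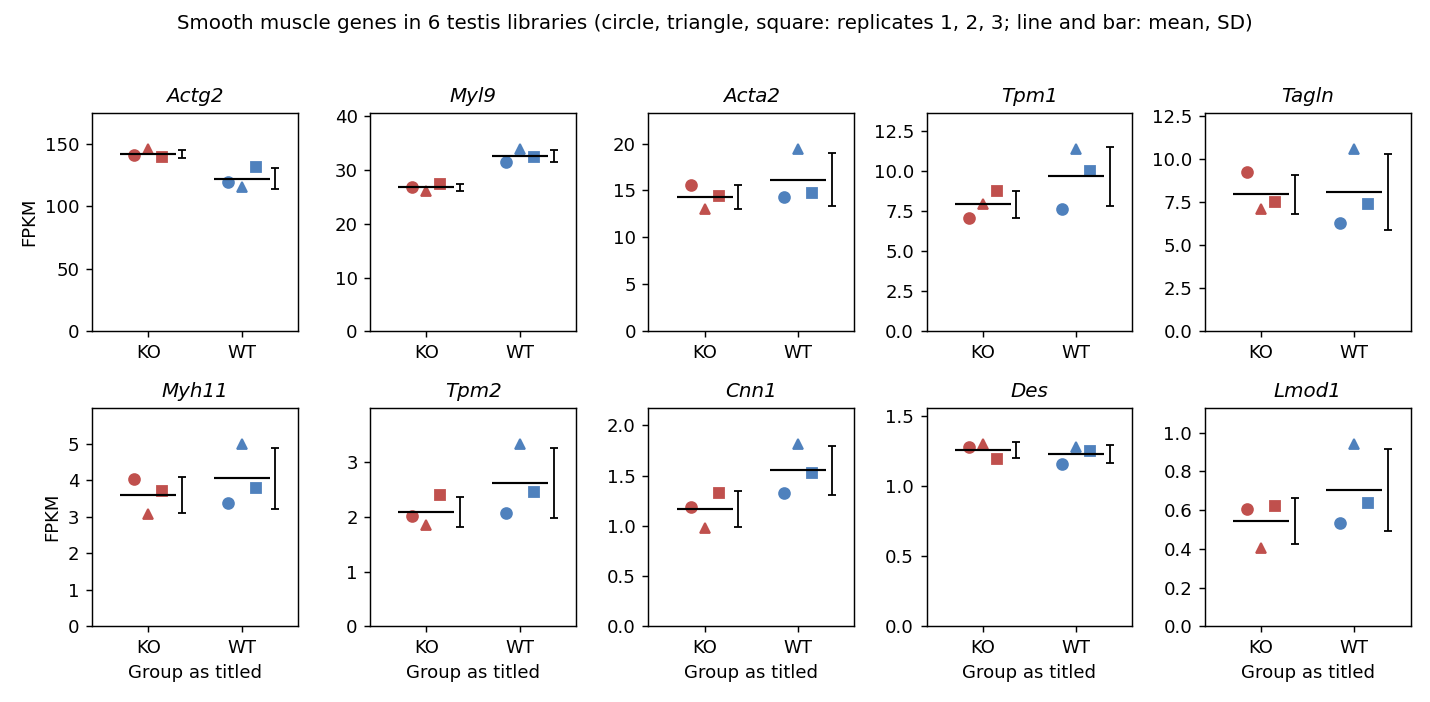
FPKM of each smooth muscle gene (vertical axes, each from 0) in the 3 KO and 3 WT libraries, with circles, triangles and squares for replicates 1, 2 and 3, a line for the mean and a bar for the SD. The groups stand apart for Actg2, higher in KO, and Myl9, lower in KO, and WT replicate 2 is the highest library for 8 of the 10 genes.

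Across the groups, 8 of the 10 genes had a lower mean log2 value in KO and 2 a higher one, but for 8 of the 10 the libraries overlapped. Myl9 was lower in every KO library than in any WT library, and Actg2 was higher in every KO library than in any WT library. Among all 12952 genes tested, 21.7% had groups without overlap, 15.8% lower and 5.92% higher in KO. By limma, Myl9 was the 1 gene of the 9 tested past the threshold of 0.05 for the adjusted p. That threshold was passed by 0.363% of all tested genes as lower and 0.788% as higher in KO (1.15% in all). As Myl9 was chosen for this fall, nothing is read from that count. It did not pass in 12 of 15 alternative analyses, which include each library left out in turn, both other scalings and the replicate number as a block. The median log2 difference of the 10 genes was -0.14 on the log2(FPKM + 1) scale, against -0.04 for all genes tested. The median of the 10 was -0.029 without WT replicate 2, -0.078 without KO replicate 2 and -0.23 without WT replicate 1.

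Myl9 encodes the regulatory light chain of smooth muscle myosin, the subunit whose phosphorylation starts contraction. It lies at 156775420 to 156781658 of chromosome 2 (mm10, plus strand). Its level was 26.8, 26.2 and 27.4 FPKM in the KO libraries and 31.6, 33.9 and 32.5 FPKM in the WT libraries. The KO mean was 82.0% of the WT mean (26.8 ± 0.577 against 32.7 ± 1.14 FPKM, SD, n = 3 each), a log2 difference of -0.28. Its libraries lay close together within each group: the residual SD was 0.041 on the log2 scale, where the median of all tested genes was 0.086. At this level a library held roughly 969 to 1238 fragments of the gene.

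The close relatives of Myl9 were set beside it. Myl12a and Myl12b encode the regulatory light chains of non-muscle myosin II. Myl12b was at 28.9, 28.2 and 30.2 FPKM in KO and 34.6, 32.8 and 30.7 FPKM in WT, again without overlap (log2 difference -0.16, SE 0.06, limma adjusted p = 0.280). Myl12a was at 12.9, 14.2 and 13.8 FPKM in KO and 14.1, 16.3 and 15.8 FPKM in WT, where the highest KO library was just above the lowest WT library (log2 difference -0.16, SE 0.07, limma adjusted p = 0.327). Neither passed the test. The sum of the 3 genes was 69.5 ± 1.64 FPKM in KO and 80.8 ± 1.98 FPKM in WT (SD, n = 3 each). It includes Myl9, which was chosen for its fall, so nothing further is read from the difference in the sum. Myl9 made up 38.2% to 39.1% of that sum in KO and 39.3% to 41.1% in WT. The coding transcript of Myl9 matched those of Myl12a and Myl12b at 85.7% and 86.5% identity over 517 bases. On the same strand, no whole alignment of a member's longest coding transcript with another gene reached 90% identity. Shorter stretches within the alignments, and matches on the opposite strand, were not examined. The essential light chain Myl6, which sits beside the regulatory one on the myosin neck, had a log2 difference of -0.11 (SE 0.06, limma adjusted p = 0.429).

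**Figure D2:**
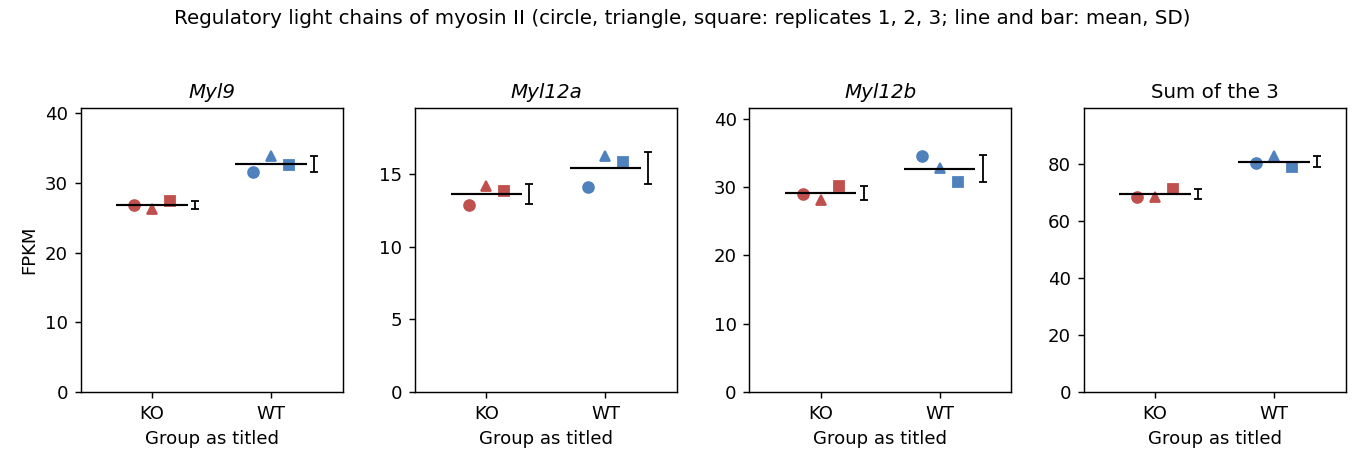
FPKM (vertical axes, each from 0) of the 3 regulatory light chain genes of myosin II and of their sum in the KO and WT libraries, with circles, triangles and squares for replicates 1, 2 and 3, lines for means and bars for SDs. The KO libraries lie below the WT libraries for Myl9, Myl12b and the sum, which includes Myl9, and overlap with them narrowly for Myl12a.

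Actg2 encodes the gamma actin of visceral smooth muscle and had the highest level of the 10 in every library. It and Des were the genes with a higher mean in KO. It lies at 83512905 to 83536265 of chromosome 6 (mm10, minus strand). Its level was 141, 146 and 139.7 FPKM in KO and 119.5, 115 and 132 FPKM in WT, so that every KO library was above every WT library. The KO mean was 116% of the WT mean (142 ± 3.13 against 122 ± 8.68 FPKM, SD, n = 3 each), a log2 difference of 0.22. Its mean over the 6 libraries was 4.45 times that of Myl9, the next gene in order. Mouse Actg2 is known to be transcribed in post-meiotic germ cells as well as in smooth muscle, so its transcripts in whole testis cannot be assigned to the tubule wall.

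The order of the libraries for Actg2 was set beside that for transcripts of spermatids. In KO replicates 1, 2 and 3 Actg2 was at 107%, 110% and 106% of its own mean over the 6 libraries, and in WT replicates 1, 2 and 3 at 90.4%, 87.2% and 99.8%. Prm1, which encodes protamine 1 of the sperm nucleus, was at 104%, 112% and 109% in KO and at 91.8%, 85.6% and 96.9% in WT. Both genes were highest in KO replicate 2 and lowest in WT replicate 2. The germ cell markers Prm2, Tnp2 and Pgk2 were also higher in every KO library than in any WT library. They too were highest in KO replicate 2 and lowest in WT replicate 2. The spermatid markers Tnp1 and Acrv1 overlapped between the groups. Tnp1, for transition protein 1, was highest in WT replicate 3 (5617 FPKM). Acrv1, of the acrosome, was lower in KO replicate 1 (147 FPKM) than in WT replicates 1 and 3 (153 and 173 FPKM). Prm1 itself missed the threshold (log2 difference 0.25, SE 0.05, limma adjusted p = 0.0682), as did Prm2 (0.19, adjusted p = 0.106) and the transition protein gene Tnp2 (0.35, SE 0.07, limma adjusted p = 0.0735). Without WT replicate 3, Prm1, Prm2 and Tnp2 passed (limma adjusted p = 0.0115, 0.0267 and 0.000987). Of the 10 germ cell markers, 8 had a higher mean log2 value in KO, 4 without overlap, and 0 passed limma's threshold (at an unadjusted p under 0.05, 4 were higher and 0 lower). Over all tested genes, 5.92% were higher in KO without overlap. At that unadjusted p, 5.38% of all tested genes were higher and 8.89% lower, and the counts below at that p have the same background.

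Acta2, the alpha actin of smooth muscle and the usual marker of peritubular myoid cells, did not separate the groups. It lies at 34241090 to 34255590 of chromosome 19 (mm10, minus strand). Its level was 15.6, 13.0 and 14.5 FPKM in KO and 14.3, 19.4 and 14.7 FPKM in WT. WT replicate 2 alone was above all the rest, and the other 5 libraries were mixed. The KO mean was 88.9% of the WT mean (14.3 ± 1.30 against 16.1 ± 2.83 FPKM, SD, n = 3 each), and the log2 difference of -0.15 became -0.018 without WT replicate 2, -0.085 without KO replicate 2 and -0.22 without WT replicate 1.

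The cytoplasmic actins Actb and Actg1 were the most abundant actin genes in this tissue. Acta2 made up 1.95% to 2.79% and Actg2 16.6% to 21.9% of the summed FPKM of 6 actin genes. Actb was at 211 ± 5.04 FPKM in KO and 196 ± 7.74 FPKM in WT, and Actg1 at 310 ± 12.8 and 336 ± 24.8 FPKM (SD, n = 3 each). Actb was above WT in every KO library and Actg1 below it, and neither passed the test (limma adjusted p = 0.380 and 0.411). The sum over the 6 actins was 677 ± 9.36 FPKM in KO and 670 ± 25.5 FPKM in WT.

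Myh11, the heavy chain of smooth muscle myosin, was at 4.02, 3.06 and 3.70 FPKM in KO and 3.37, 4.98 and 3.79 FPKM in WT. The groups overlapped, with KO replicate 2 lowest and WT replicate 2 highest, and the log2 difference was -0.13. It was -0.00011 without WT replicate 2, -0.043 without KO replicate 2 and -0.23 without WT replicate 1. Myh11 supplied at most 20.6% of the summed FPKM of 4 myosin II heavy chain genes, and Myh10, a non-muscle heavy chain, 70.4% to 74.7%. Myh10 had a log2 difference of -0.01 (SE 0.07, limma adjusted p = 0.946), and Myh9 one of 0.06 (SE 0.09, limma adjusted p = 0.743).

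Tagln encodes transgelin, a small actin-binding protein, and Cnn1 encodes calponin, which binds actin and slows its sliding over myosin. Tagln was at 9.25, 7.11 and 7.54 FPKM in KO and 6.32, 10.6 and 7.41 FPKM in WT, with the lowest and the highest library both in WT. Its log2 difference was -0.0014, and it was 0.19 without WT replicate 2 and -0.14 without WT replicate 1. It kept its sign in 8 of 15 alternatives. Tagln shares exon sequence with the antisense gene Gm48529 in GENCODE M21 and overlaps the bounds of the protein-coding gene Pcsk7 on the same opposite strand. Whether the counting used strand is not known here, so reads of either may be included. Cnn1 was at 1.19, 0.981 and 1.33 FPKM in KO and 1.33, 1.81 and 1.52 FPKM in WT, a KO mean of 75.1% of WT. The highest KO and lowest WT library had nearly the same value, so the groups overlapped by a hair. Its log2 difference of -0.24 became -0.16 without WT replicate 2 and -0.30 without WT replicate 1. With a pseudocount of 0.1 or 0.01 it was -0.38 or -0.41, and it was negative in all 15 alternatives. Cnn2, the more widely expressed calponin, was lower in every KO library (2.08 ± 0.184 against 2.67 ± 0.393 FPKM, SD, n = 3 each) and did not pass (log2 difference -0.25, SE 0.09, limma adjusted p = 0.269).

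Tropomyosins lie along the actin filament and set which proteins can bind it. Tpm1 was at 7.05, 7.94 and 8.75 FPKM in KO and 7.64, 11.3 and 9.96 FPKM in WT. Tpm2 was at 2.02, 1.85 and 2.40 FPKM in KO and 2.08, 3.33 and 2.45 FPKM in WT. WT replicates 2 and 3 were the highest libraries for both genes, and WT replicate 1 lay among the KO libraries. The KO means were 82.1% and 79.8% of the WT means, and the log2 differences of -0.25 and -0.22 became -0.13 and -0.081 without WT replicate 2, and -0.39 and -0.33 without WT replicate 1. Tpm1 has 21 transcripts in GENCODE M21, non-muscle forms among them, and the gene value sums over them. Tpm3, mainly a non-muscle form here at 51.1% to 59.9% of the summed tropomyosin FPKM, had a log2 difference of -0.03 (SE 0.06, limma adjusted p = 0.828).

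Des and Lmod1 had the lowest means of the 10 over the 6 libraries, although in KO the mean of Cnn1 was below that of Des. Des encodes desmin, the intermediate filament of muscle, and was at 1.28, 1.29 and 1.19 FPKM in KO and 1.15, 1.28 and 1.25 FPKM in WT. The groups overlapped fully, the log2 difference was 0.02, and the spread was small (residual SD 0.039 on the log2 scale). Des overlaps the antisense gene Gm15179, listed at 0 in all libraries. It lies on chromosome 1, 2.33 Mb beyond the end of the Teshl gene. Vim, the intermediate filament of most mesenchymal cells, was far higher than Des and had a log2 difference of -0.16 (SE 0.10, limma adjusted p = 0.457). Lmod1 encodes leiomodin 1, which starts new actin filaments in smooth muscle, and was at 0.605, 0.406 and 0.623 FPKM in KO and 0.532, 0.940 and 0.636 FPKM in WT. That is about 53 to 120 fragments per library. Its log2 difference was -0.14, and -0.30 or -0.35 with a pseudocount of 0.1 or 0.01.

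The 10 genes also varied between libraries of the same group, which the choice of genes had not used. WT replicate 2 was the highest of the WT libraries for 9 of the 10, as it was for 45.5% of all tested genes. Acta2, Myh11, Cnn1, Tagln, Tpm1, Tpm2 and Lmod1 were there 1.27 to 1.61 times the mean of the other two WT libraries. Myl9 and Des were each at 1.06 times that mean, and Actg2 at 0.917 times. KO replicate 2 was the lowest KO library for 7 of the 10, as it was for 38.1% of all tested genes. It held 0.661 times the mean of the other two for Lmod1 and 1.05 times for Des. The sum of the 8 genes left without Actg2 and Myl9 was 41.0, 35.6 and 40.0 FPKM in KO and 36.7, 53.6 and 41.7 FPKM in WT, with overlap.

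**Figure D3:**
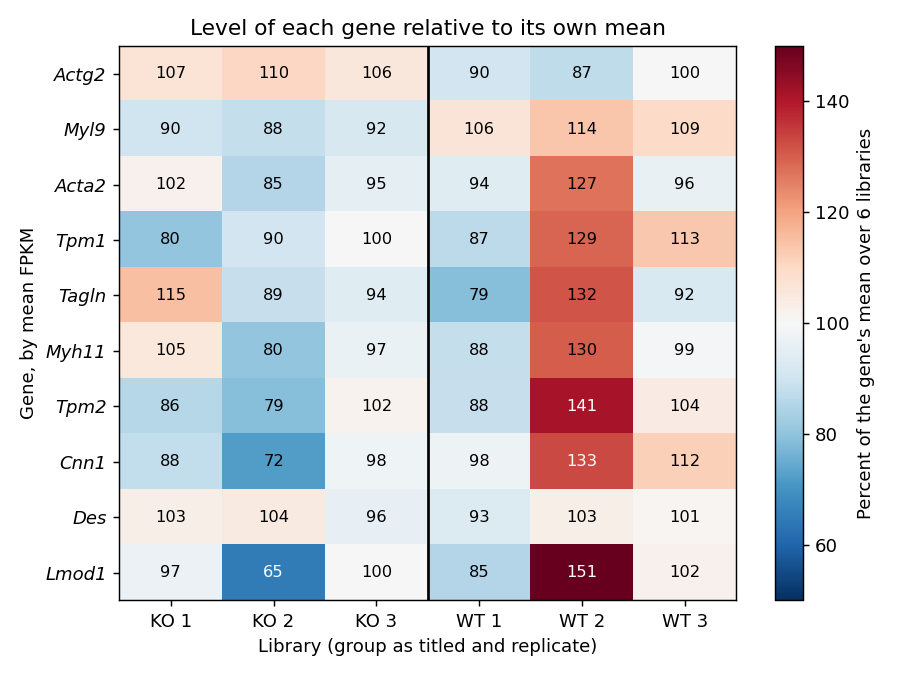
Level of each smooth muscle gene in each library as percent of its own mean over the 6 libraries (colour and number), with genes ordered by mean FPKM and a line between KO and WT. WT replicate 2 reaches 127% to 151% for 7 genes. Myl9 is below 100% in all KO libraries and above it in all WT libraries. Actg2 shows the reverse, with WT replicate 3 just below 100% at 99.8%.

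Markers of some other cells were also highest in WT replicate 2. Genes of peritubular cells outside contraction had a median level of 126% of their own means in that library, over 11 tested genes, and 84.5% in KO replicate 2. WT replicate 2 was the highest WT library for 9 of these 11 genes and the lowest for 1. The 9 smooth muscle genes without Actg2 had medians of 130% and 85.2% in these libraries. Macrophage markers had medians of 118% and 85.4%, and WT replicate 2 was the highest WT library for 8 of the 8 tested. Medians were 111.4% and 90.6% for Leydig cell markers, and 108% and 90.7% for genes that control contraction. The Leydig median was nearly as high in WT replicate 3, at 110.6%. Other lists had their highest median in WT replicate 3. In WT replicates 2 and 3 the medians were 106% and 114% for endothelial and 108% and 113% for mural cell markers. They were 104% and 108% for Sertoli cell markers and 96.1% and 114% for immediate early genes. The median of the 10 germ cell markers went the other way, at 89.3% and 108%, and that of all tested genes was 103% and 97.5%. WT replicate 2 was the lowest WT library for 7 of the 10 germ cell markers and the highest for 2, Dazl and Sycp3. In bulk tissue, fewer cells of a type and less RNA per cell cannot be told apart, and the part of these other cells in the smooth muscle values was not tested.

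**Figure D4:**
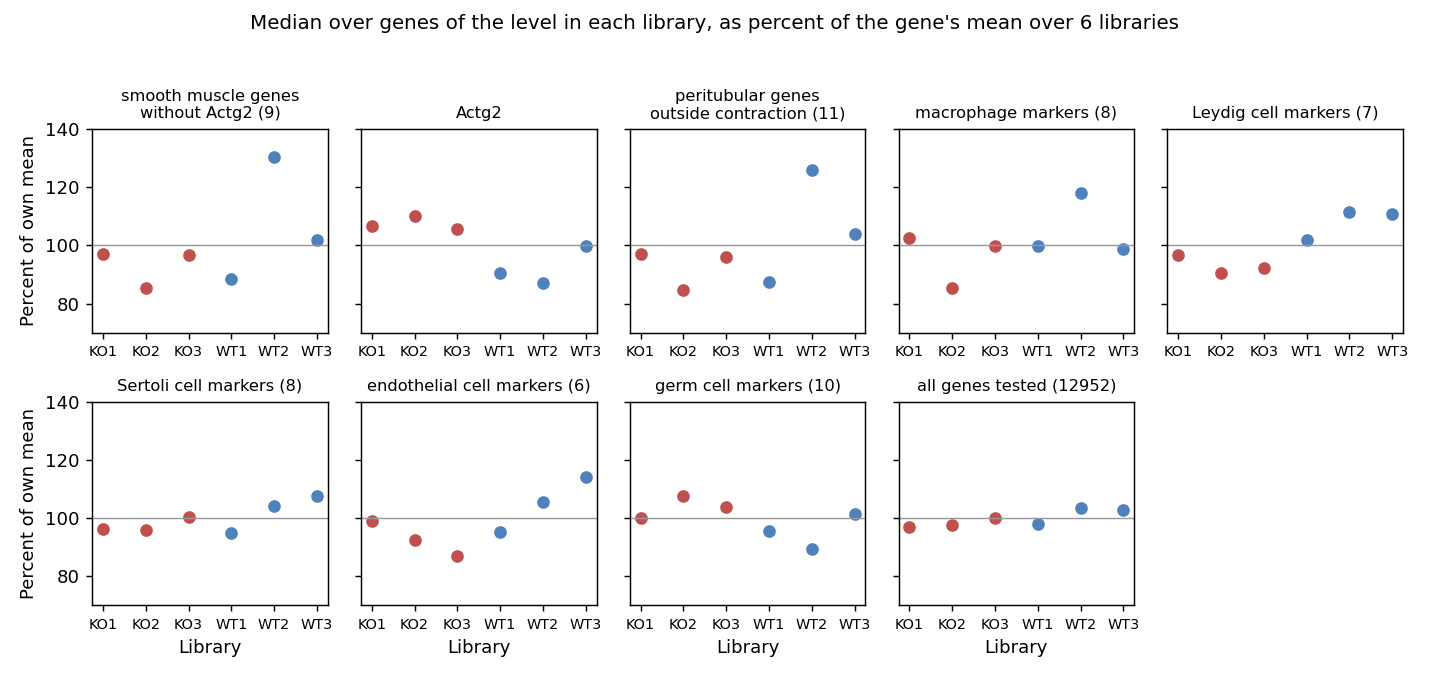
Level in each library as percent of a gene's mean over the 6 libraries (vertical axis, from 70 to 140), as the median over the tested genes of each list, with the number of genes in brackets, for KO (red) and WT (blue). The panel of smooth muscle genes also includes Lmod1, which was under the filter. WT replicate 2 is highest and KO replicate 2 lowest for the smooth muscle genes without Actg2, the peritubular genes outside contraction, the macrophage markers and the Leydig cell markers. The endothelial and Sertoli cell markers are highest in WT replicate 3. Actg2 and the median of the germ cell markers are lowest in WT replicate 2 and highest in KO replicate 2.

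The other parts of the contractile system were taken from lists. Of 17 tested genes that control contraction (23 listed), limma called 0 in either direction (at an unadjusted p under 0.05, 0 were higher and 1 lower), and their median log2 difference was -0.06. The gene with that unadjusted p was Oxtr, which encodes the oxytocin receptor, a trigger of tubule contraction (log2 difference -0.19, SE 0.08, limma adjusted p = 0.318). Calm2 and Calm3, which encode a calcium sensor, had log2 differences of 0.0041 and -0.05. The light chain kinase gene Mylk was at 5.02, 4.72 and 5.34 FPKM in KO and 5.06, 5.49 and 5.74 FPKM in WT, with overlap. Mylk was named for its action on the Myl9 product, after its values were seen.

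Genes of the filament anchors and adhesions showed the same. Of 24 tested (31 listed), limma called 0 (at an unadjusted p under 0.05, 0 were higher and 1 lower), with a median of -0.06. The lowest p was that of Ilk, which encodes integrin-linked kinase (log2 difference -0.18, SE 0.07, limma adjusted p = 0.293). Tns1, encoding tensin 1, Hspb6, a small heat shock protein of smooth muscle, and Csrp2, a LIM domain protein, were the most abundant, with differences of -0.01, -0.13 and -0.06. Cald1, which encodes caldesmon and was named in the same way, was at 3.44, 3.23 and 3.20 FPKM in KO and 2.93, 4.63 and 3.62 FPKM in WT. The relatives of the 10 genes in other cells gave 0 calls by limma among 16 tested (23 listed; at an unadjusted p under 0.05, 0 were higher and 4 lower), with a median of -0.11. Those 4 were Myl12a, Myl12b, Cnn2 and Tmod4, a tropomodulin gene that caps actin filaments (log2 difference -0.25, SE 0.09, limma adjusted p = 0.258). Acta1 and Actc1, the actins of skeletal and heart muscle, were at 0.08 FPKM or less in every library.

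Transcription regulators of smooth muscle were measured as well, since several act through the CArG box. Srf was at 7.38, 6.94 and 7.40 FPKM in KO and 7.42, 8.34 and 7.81 FPKM in WT, lower in KO without overlap by a narrow margin and not past the test (log2 difference -0.10, SE 0.06, limma adjusted p = 0.463). Its partner Mrtfa had a log2 difference of -0.10 (SE 0.07, limma adjusted p = 0.488), and Klf4, an opponent of the contractile program that is abundant in spermatids, one of -0.05 (SE 0.07, limma adjusted p = 0.761). Myocd, encoding myocardin, was at 0.11 FPKM or less in every library, under the filter. Of 13 tested regulators (20 listed), limma called 0 (at an unadjusted p under 0.05, 0 were higher and 2 lower, Mef2a and Hey1), with a median of -0.09.

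Cell type markers describe what else the tissue held. Summed FPKM of the 12 vascular mural cell markers was 21.6 to 27.0 in KO and 26.7 to 29.7 in WT, and 6.23 to 7.15 and 6.68 to 7.68 without Ndufa4l2, their highest gene. None of them was listed at 0 in all libraries, and the defining markers Rgs5 and Notch3 were at 1.10 ± 0.0946 FPKM in KO and 1.10 ± 0.116 FPKM in WT (SD, n = 3 each) and at 0.313 FPKM or less in every library. Endothelial markers summed to 13.2 to 14.1 FPKM in KO and 13.8 to 16.5 FPKM in WT, with Eng listed at 0 in WT replicate 2. Markers of Leydig cells, the steroid-making cells between the tubules, summed to 1529 to 1761 FPKM in KO and 1701 to 1764 FPKM in WT. Without Insl3, their highest gene, they summed to 242 to 271 and 257 to 305 FPKM. Markers of Sertoli cells, the supporting cells within the tubules, summed to 441 to 488 FPKM in KO and 463 to 525 FPKM in WT. Without Clu, their highest gene, they summed to 148 to 155 and 149 to 166 FPKM. The test covered 3 of the 12 mural, 6 of the 12 endothelial, 7 of the 7 Leydig and 8 of the 10 Sertoli cell markers. Limma called 0 genes in each of these lists. At an unadjusted p under 0.05, 1 mural (Ndufa4l2), 2 endothelial (Pecam1 and Egfl7), 1 Leydig (Hsd3b1) and 0 Sertoli cell markers were lower and 0 were higher. The Sertoli cell markers Fshr and Amh, under the filter, had KO means of 58.5% and 105% of the WT means.

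Markers of tissue from outside the testis proper were measured too. Skeletal muscle markers summed to 4.43 to 5.27 FPKM in KO and 4.97 to 5.27 FPKM in WT, with Actn3 the highest gene, and the fast myosin gene Myh4 was at 0.0112 FPKM or less. Of 9 epididymis markers, Lcn5, Rnase9 and Adam7 were listed at 0 in all 6 libraries, and the sum of the list was 3.86 to 4.06 and 3.66 to 4.98 FPKM, most of it from Rnase10. The median of the 2 tested epididymis markers, Rnase10 and Cuzd1, was 82.9% of their own means in KO replicate 2 and 123% in WT replicate 2, in the direction of the smooth muscle genes, and their part in those values was not tested. The 9 macrophage markers summed to 39.4 to 45.2 FPKM in KO and 42.1 to 56.5 FPKM in WT, with the highest sum in WT replicate 2. The 10 immediate early genes, which handling of tissue can raise, summed to 28.7 to 29.7 FPKM in KO and 27.7 to 33.2 FPKM in WT. Limma called 0 genes in the macrophage, skeletal muscle, epididymis, immediate early and peritubular lists. In that order, 8 of 9, 1 of 10, 2 of 9, 7 of 10 and 11 of 18 listed genes were tested. The counts at an unadjusted p under 0.05 were 0 except for Actn3, lower in KO and the only skeletal muscle marker tested.

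Genes with the library pattern most like that of the 9 smooth muscle genes past the filter were sought among 7892 other genes averaging 5 FPKM or more. The closest 6 were Thop1, Coq5, Dstn, Naa15, Mrpl22 and Pcbp3, with a likeness (Pearson's r of log2 values over 6 libraries, as a description) of 0.994 to 0.999. Dstn encodes destrin, which takes actin filaments apart. Of all candidates, 159 of the 7892 genes reached a likeness of 0.95. Each of the 6 was highest in WT replicate 2 and lowest in KO replicate 2, which follows from their choice by likeness to that pattern. The likeness takes no account of the size of the changes. Thop1 ran only from 97.6 FPKM in KO replicate 2 to 104 FPKM in WT replicate 2.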

How the data were processed

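Testis RNA was made into directional libraries (NEBNext Ultra II, per the labels' protocols), and the submitters' processing notes name HISAT2 and mm10; which quantifier and annotation were used, and whether strand was, is not stated in the labels. The deposited tables hold 1 value per gene row, taken as FPKM scaled by the authors, because the values are not whole, library sums differ and low values step with transcript length. Rows were summed per symbol. Depth came from the most common smallest step in 2397 genes with 1 transcript and is approximate; floors (3 fragments on 1 kb: 0.0757 to 0.107 FPKM) cover counting error only.

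The scale was log2(FPKM + 1), and limma 3.58.1 (R 4.3.3, with its trend and robust options) compared KO with WT in the 12952 genes whose mean reached 1 FPKM in either group, using Benjamini-Hochberg adjustment and a threshold of 0.05; differences are KO minus WT, and understate changes of low genes. The fit was tested on simulated data. Transcripts were compared with BLAST 2.17.0. Figures were drawn with matplotlib 3.10.9. The members and lists were chosen with earlier results of these data known. The naming rule took all members, their tested relatives, Teshl, the 6 genes of most similar pattern and, of each other list, genes called by limma and the 3 of highest mean; marker lists are given mainly as sums, and 1 gene that the rule took is not reported here. Genes named for an unadjusted p were chosen after their values were seen. No protein sequences were used here.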

Additional observations from a re-analysis of the deposited data

How the results depend on the processing

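Alternatives were other pseudocounts, filters and scalings, no robust estimation, symbols on a single row, the replicate number as a block and each library left out. Against 102 genes higher and 47 lower in KO, the counts were 32 and 18 with the replicate block, 56 higher without a filter, 28 lower with median of ratios scaling and 27 lower on single rows. With libraries left out, 49 to 184 were higher and 23 to 49 lower; fewest were higher without KO replicate 2 and most without WT replicate 3. Equal replicate numbers did not pair the libraries (correlations of deviations 0.0647, -0.129 and 0.0614). The median of the 10 genes was -0.23 to -0.029 with libraries left out, -0.21 and -0.22 with pseudocounts of 0.1 and 0.01, and -0.15 without Actg2, a choice made after seeing the data. Signs held in all 15 alternatives for 8 of the 10 genes, but not for Tagln (8 of 15) or Des (14 of 15). Myl9 ranged from -0.30 to -0.23 and passed limma's threshold in 3 of 15, which were both other pseudocounts and the filter at 5 FPKM. Among 133 tested genes of the other lists, Prm1, Prm2 and Tnp2 alone passed under any alternative.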
